A study of Mus musculus with 24 samples.

Results

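The genes described here are the Janus kinases Jak1, Jak2 and Tyk2, the transcription factors Stat3, Stat4, Stat5a, Stat5b and Stat6, and the feedback inhibitors Socs3 and Cish. They were chosen by name, though earlier results of these data were known. All 10 named symbols were present among the 547 genes measured. RNA was taken at week 7 of life from the terminal ileum, where the small intestine ends, of 24 mice of the C57BL/6 strain. Transcripts were counted on a NanoString nCounter immunology panel for mouse, which tags each of them with a barcoded pair of probes and counts single tags without amplification. The study asked whether 1 early course of tylosin, a macrolide antibiotic, changed the host as repeated courses did.

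Control mice (n = 7, 4 males and 3 females) received non-acidified water and no antibiotic. PAT1 mice (pulsed antibiotic treatment, n = 7, 4 males and 3 females) had a single tylosin course as nursing pups, through the milk of the treated dam. PAT3 mice (n = 10, 4 males and 6 females) had that course and later ones, for 3 courses in all. Their last course was nearer to sampling than that of PAT1 mice. Number of courses and time since the last course therefore cannot be told apart between these groups. The sizes that the study's text gives for the PAT1 and PAT3 groups differ from those of the labels, so the group of a single mouse may be in doubt, and the labels were followed throughout. Whole litters were assigned to a group and mice were housed by sex and group, so that litter, cage and treatment cannot be told apart. The labels do not say which mice shared a litter, and the p-values treat every mouse as independent.

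Cytokines bind receptors that have no enzyme of their own and borrow a bound Janus kinase. The activated kinases phosphorylate the receptor and then a STAT protein, which forms dimers, enters the nucleus and switches on genes. Among these genes are those of the SOCS family, whose proteins bind the receptor or kinase and damp the signal. In the gut, this pathway carries signals such as those of IL-6 and IL-22 to the epithelium, of interferons to most cells, and of IL-12, IL-2 and IL-4 to lymphocytes. Much of its regulation lies in phosphorylation, which RNA levels do not report.

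STAT dimers bind short palindromes, written TTCNNNGAA for most STATs, while Stat6 prefers the same half-sites, TTC and GAA, with 4 bases between them. Each motif is its own reverse complement, so a search of 1 strand covers both, and no letters can match both motifs at the same position. The 250 bases upstream of each annotated start were searched in RefSeq promoter sequences of assembly GRCm38.p6, which held 13 windows for the 10 genes. There was 1 match, in Socs3, from 154 to 146 bases upstream of the start. Of all 32851 windows of that length in the table, 7.02% held TTCNNNGAA and 5.85% held the form with 4 bases between. The Socs3 site is shown because Socs3 had the lowest p-values of the 10 genes in both comparisons with Control, and the Cish window is shown because Cish, the other inhibitor, is set against it below. Capitals mark the motif, and no match was found in the Cish window.
Socs3 site, chr11:117969502-117969530, minus strand: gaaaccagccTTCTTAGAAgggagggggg
Cish window, chr9:107296409-107296658, plus strand: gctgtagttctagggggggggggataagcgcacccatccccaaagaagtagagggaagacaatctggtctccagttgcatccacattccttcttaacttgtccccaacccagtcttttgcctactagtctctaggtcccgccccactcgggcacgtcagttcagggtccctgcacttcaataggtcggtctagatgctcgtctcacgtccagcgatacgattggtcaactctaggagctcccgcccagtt
A letter match is a description of the sequence and does not show that a STAT binds there.

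Values are log2 normalized counts, on which a difference of 1 is a doubling. They are compared between groups for 1 gene at a time and never between genes, whose probes differ. Recovered totals ranged from 171671 to 782392 counts per mouse, with the shallowest mouse in PAT1, and this sets the counting error of low genes. No value of the 10 genes was listed at 0. Counting error alone, taken as 1 over the square root of the median count, was 1.93% for Stat3 and 15.4% for Cish in Control mice. The median of all genes per mouse lay 0.14 lower in PAT1 and 0.19 lower in PAT3 than in Control on the log2 scale, so that re-centring each mouse on its median moves every fold change upward by these amounts. A gene is termed called where limma gave a Benjamini-Hochberg adjusted p under 0.05 over all 547 genes.

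Of the 10 genes, Socs3 was called in PAT1, and Socs3, Stat4 and Stat6 were called in PAT3. Socs3 and Stat4 fell and Stat6 rose. In PAT1, 1 of 10 was called beside 18.5% of all genes. In PAT3, 3 of 10 were called beside 31.8% of all genes. Neither share stood above that of the panel as a whole. With re-centred values, 8 of 10 were called in PAT3 (6 higher and 2 lower), beside 42% of all genes. With quantile normalization, 7 of 10 were called (4 higher and 3 lower), beside 35.6% of all genes, and with sample weights 7 of 10 (5 higher and 2 lower), beside 52.5%. Both comparisons use the same 7 Control mice.

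**Figure D1:**
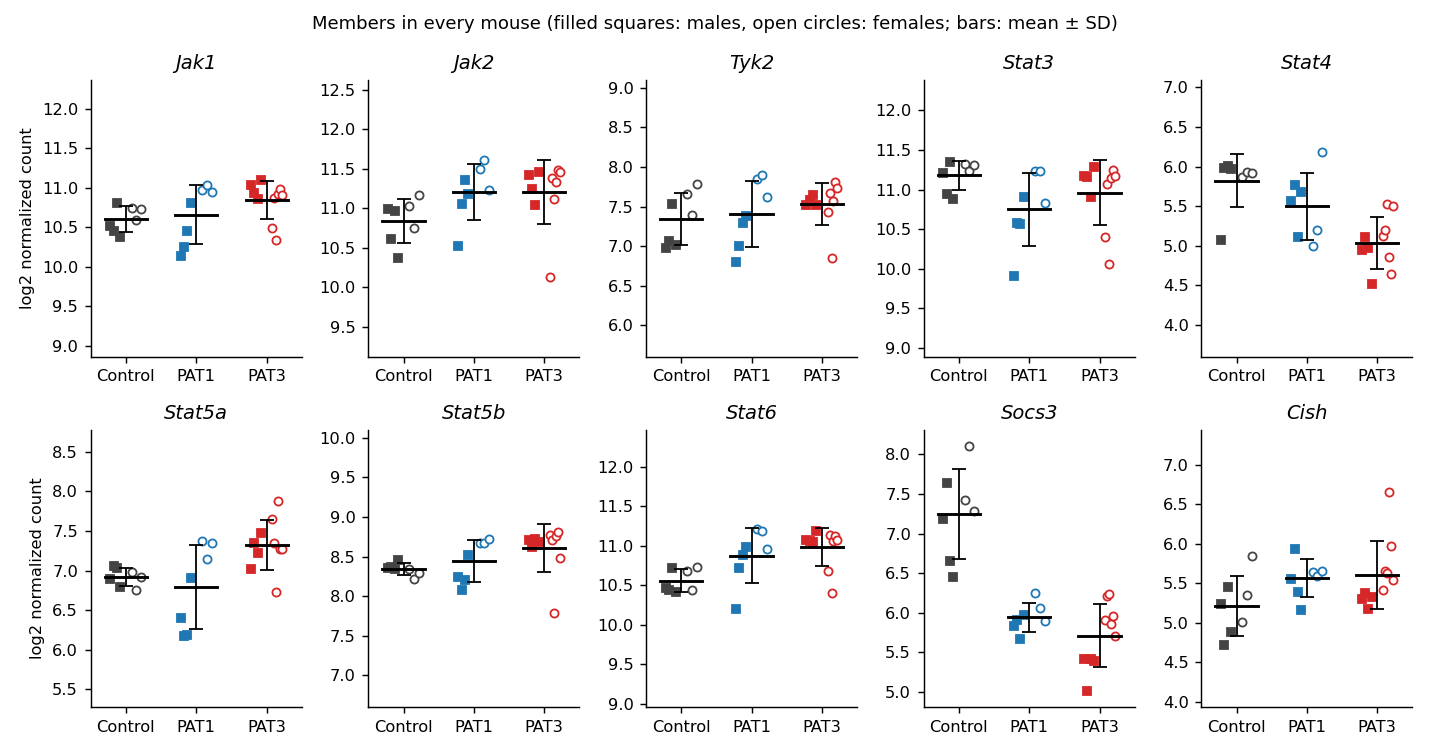
Log2 normalized counts (y axis, each panel spanning the same range) of the 10 genes in every mouse of the 3 groups, with males as filled squares, females as open circles, and the mean ± SD as bars. All PAT1 and PAT3 values of Socs3 lie below the lowest Control value of 6.45, whereas the values of the Janus kinases overlap between groups.

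The Janus kinases come first. Jak1, which pairs with the largest share of cytokine receptors, ranged in Control mice from 10.37 to 10.80, with a median of 10.59. In PAT1 mice it ranged from 10.13 to 11.04, with a median of 10.80, and in PAT3 mice from 10.34 to 11.10, with a median of 10.91. The 3 groups overlapped, and neither PAT1 (log2 fold change 0.055, 95% CI −0.26 to 0.37, adjusted p = 0.856) nor PAT3 (0.24, 95% CI −0.05 to 0.53, adjusted p = 0.198) was called in the limma fit. Jak2 serves the receptors of erythropoietin, growth hormone, IL-12 and interferon gamma. Its mean was 10.84 ± 0.28 (SD, n = 7) in Control mice, 11.21 ± 0.36 (n = 7) in PAT1 mice and 11.21 ± 0.41 (n = 10) in PAT3 mice. The log2 fold change was 0.37 in both PAT1 (limma adjusted p = 0.206) and PAT3 (adjusted p = 0.112), and 6 of 7 and 9 of 10 mice lay above the Control mean. Among PAT3 mice, 9 lay between 11.04 and 11.49 and a single female, replicate 5, lay at 10.14. Of 13 alternatives other than leaving out a mouse, 3 called Jak2 in PAT3. Of 24 fits that left out 1 mouse, only the fit without replicate 5 called it, at 0.49 with a limma adjusted p of 0.0109. That mouse also had the lowest enterocyte marker mean of all mice, at 11.33, and the part of this in its Jak2 value was not tested. Tyk2, the kinase of type I interferon, IL-12 and IL-10 receptors, had the smallest change of the kinases in PAT3, at 0.19 (95% CI −0.16 to 0.53, limma adjusted p = 0.407), and 0.061 in PAT1 (adjusted p = 0.863). Its values spanned 6.98 to 7.78 in Control, 6.80 to 7.90 in PAT1 and 6.84 to 7.81 in PAT3 mice. No Janus kinase of the 3 was called in either comparison.

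Stat3 transmits IL-6, IL-10 and IL-22 signals and is needed for epithelial repair and Th17 cells. Its values ran from 10.88 to 11.34 in Control mice, with a median of 11.23. They ran from 9.91 to 11.24 in PAT1 mice, with a median of 10.83, and from 10.06 to 11.28 in PAT3 mice, with a median of 11.16. The groups overlapped, and the lower end reached further down in both PAT groups. The log2 fold change was −0.43 in PAT1 (95% CI −0.84 to −0.01, p = 0.043, limma adjusted p = 0.153) and −0.22 in PAT3 (95% CI −0.60 to 0.17, adjusted p = 0.396). The lowest PAT1 value belonged to the shallowest mouse, with 171671 counts. Of 13 alternatives other than leaving out a mouse, 2 called Stat3 lower in PAT1. These were quantile normalization (−0.54, limma adjusted p = 0.00980) and the mean of T cell markers as a covariate (−0.73, adjusted p = 0.0167). In PAT3, 1 of the 13 called it, quantile normalization (−0.37, limma adjusted p = 0.0380). Of 24 fits that left out 1 mouse, 0 called it in either comparison.

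Stat4 carries the IL-12 signal in T cells and natural killer cells. In Control mice it ranged from 5.07 to 6.01, with a median of 5.94. In PAT1 mice it ranged from 4.998 to 6.18, with a median of 5.56, and in PAT3 mice from 4.51 to 5.53, with a median of 5.04. A single Control male, replicate 1, lay within the range of the PAT3 mice, and the other 6 Control mice lay at 5.86 or above, higher than every PAT3 mouse. The mean fell by 0.78 in PAT3 (SE 0.18, 95% CI −1.15 to −0.42, limma adjusted p = 0.00154), which is 1.72-fold lower, and 10 of 10 PAT3 mice lay below the Control mean. Without Control replicate 1 the value was −0.91. In PAT1 the log2 fold change was −0.32 (95% CI −0.72 to 0.07, limma adjusted p = 0.287). The order of the means was Control, PAT1 and PAT3 from high to low, and neighbouring groups did not differ beyond the threshold, with PAT3 minus PAT1 at −0.46 (limma adjusted p = 0.0978). Stat4 rested on few counts, 19 to 112 per mouse in PAT1 and 25 to 45 in PAT3.

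T cell markers moved with Stat4. Of 11 T cell marker genes, 9 were called lower in PAT3 and 3 in PAT1, and none was listed at 0. The mean of the list ranged from 6.29 to 6.52 in Control mice, from 5.40 to 6.39 in PAT1 mice and from 4.85 to 5.84 in PAT3 mice, without overlap between Control and PAT3. Of 3 natural killer cell markers, 2 were called lower in PAT3, with list means of 4.92 to 5.48 in Control and 4.37 to 5.003 in PAT3 mice. With the T cell mean as a covariate, Stat4 in PAT3 was at 0.06 (limma adjusted p = 0.933). In bulk tissue, fewer cells of a type and less RNA per cell cannot be told apart.

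Stat5a and Stat5b, which act downstream of IL-2, IL-7, GM-CSF and prolactin, are close paralogs encoded side by side, with Stat3 next to them on chromosome 11. Probe sequences were not analysed here, so cross-hybridization between the pair was not tested. Stat5a ranged from 6.76 to 7.06 in Control mice, from 6.17 to 7.37 in PAT1 mice and from 6.73 to 7.88 in PAT3 mice. It was called in the F-test among the 3 groups (limma adjusted p = 0.0421), in which 4 of the 10 genes were called (Socs3, Stat4, Stat5a and Stat6) beside 34.6% of all genes. The calls of Stat5a and Stat6 were lost in 13 of 24 fits that left out 1 mouse, with 2 genes then called. No pairwise difference of Stat5a was called. PAT3 minus PAT1 was 0.53 (95% CI 0.17 to 0.90, limma adjusted p = 0.0662), PAT3 minus Control 0.40 (adjusted p = 0.0820) and PAT1 minus Control −0.13 (adjusted p = 0.707). Stat5b was 8.34 ± 0.07 (SD, n = 7) in Control mice, the smallest spread of the 10 genes in that group, 8.44 ± 0.26 (n = 7) in PAT1 mice and 8.61 ± 0.30 (n = 10) in PAT3 mice. Its log2 fold change was 0.10 in PAT1 (limma adjusted p = 0.682) and 0.27 in PAT3 (adjusted p = 0.125).

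Stat6 conveys IL-4 and IL-13 signals, which drive mucus and type 2 responses. It ranged from 10.42 to 10.73 in Control mice, with a median of 10.46. PAT1 mice spanned 10.19 to 11.21, with a median of 10.95, and PAT3 mice 10.40 to 11.19, with a median of 11.06. Most PAT3 mice lay above all Control mice, and the groups overlapped at the low end. Stat6 rose by 0.43 in PAT3 (SE 0.14, 95% CI 0.14 to 0.71, limma adjusted p = 0.0197), which is 1.34-fold, with 9 of 10 mice above the Control mean. In PAT1 it was 0.32 (95% CI 0.01 to 0.63, limma adjusted p = 0.152). With the T cell mean as a covariate, Stat6 in PAT3 was at −0.08 (limma adjusted p = 0.878). The T cell means of Control and PAT3 mice do not overlap, which limits what that fit can separate. Among females alone, Stat6 was at 0.30 (limma adjusted p = 0.397) and Stat4 at −0.76 (adjusted p = 0.0923), so neither was called in that smaller set.

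**Figure D2:**
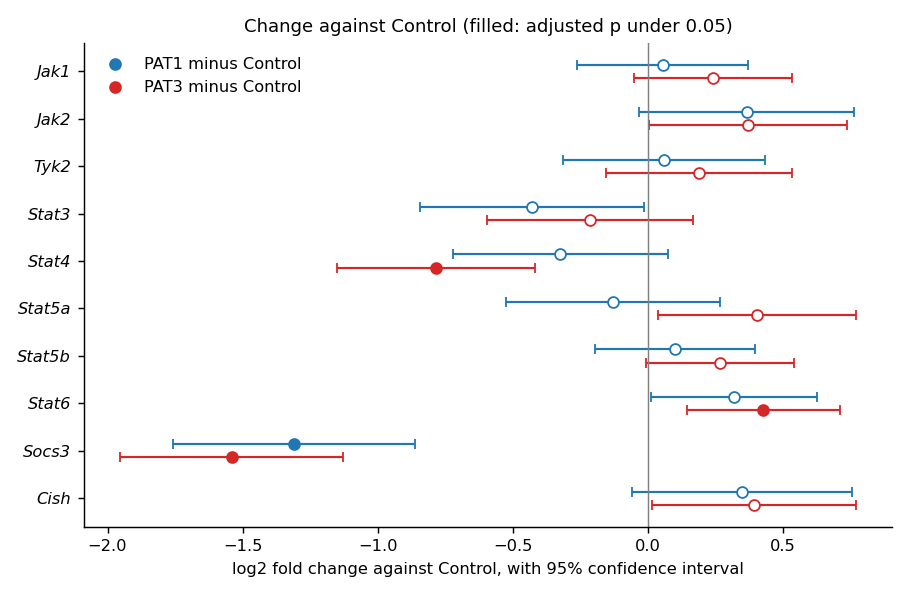
Log2 fold change against Control (x axis) with its 95% confidence interval from limma for each of the 10 genes, in PAT1 (blue) and PAT3 (red), with filled points where the adjusted p was under 0.05. Socs3 lies furthest from 0, at −1.31 and −1.54, and the intervals of PAT1 and PAT3 overlap for all 10 genes.

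Socs3 shuts off signalling through gp130 receptors such as that of IL-6 and is itself switched on by Stat3. In Control mice it ranged from 6.45 to 8.11, with a median of 7.29. In PAT1 mice it ranged from 5.67 to 6.25, with a median of 5.90, and in PAT3 mice from 5.003 to 6.24, with a median of 5.78. Both PAT groups lay wholly below the Control mice, a separation that 6.22% of all genes had in PAT1 and 9.32% in PAT3. In counts, Control mice held 108 to 312, PAT1 mice 23 to 92 and PAT3 mice 40 to 91. Socs3 fell by 1.31 in PAT1 (SE 0.22, 95% CI −1.76 to −0.86, limma adjusted p = 0.000203), which is 2.48-fold lower. It fell by 1.54 in PAT3 (SE 0.20, 95% CI −1.95 to −1.13, limma adjusted p = 1.65e-06), which is 2.91-fold lower. All 7 PAT1 and all 10 PAT3 mice lay below the Control mean. By p-value it ranked 7 of 547 genes in PAT1 and 15 of 547 in PAT3. PAT3 minus PAT1 was −0.23 (95% CI −0.64 to 0.18, limma adjusted p = 0.475). The order of the means was Control, PAT1 and PAT3 from high to low, and the PAT groups did not differ beyond the threshold. Males of the 2 groups did not overlap, at 5.67 to 5.97 in PAT1 and 5.003 to 5.41 in PAT3. Females did overlap, at 5.90 to 6.25 in PAT1 and 5.71 to 6.24 in PAT3. Of 13 alternatives other than leaving out a mouse, 0 called this difference. With the T cell mean as a covariate, Socs3 was at −1.18 in PAT1 (limma adjusted p = 0.00263) and −1.24 in PAT3 (adjusted p = 0.0593).

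Cish, an inhibitor induced by Stat5, did not follow Socs3. It ranged from 4.72 to 5.85 in Control mice, from 5.17 to 5.93 in PAT1 mice and from 5.17 to 6.65 in PAT3 mice, with medians of 5.23, 5.59 and 5.48. The log2 fold change was 0.35 in PAT1 (95% CI −0.06 to 0.76, limma adjusted p = 0.257) and 0.39 in PAT3 (95% CI 0.02 to 0.77, adjusted p = 0.103). It rested on 19 to 118 counts per mouse. The Cish value in PAT3 was called with re-centred values, at 0.58 (limma adjusted p = 0.0274), and with quantile normalization, at 0.65 (adjusted p = 0.0103), as well as without Control replicate 7, at 0.50 (adjusted p = 0.0413). These were 2 of 13 alternatives other than leaving out a mouse, and 1 of 24 fits that left out 1 mouse. Among those 13, the limma adjusted p reached 0.459.

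Differences between an inhibitor and its STAT within each mouse were taken after the values were seen and are given without a test. Socs3 minus Stat3 averaged −3.93 ± 0.56 (SD, n = 7) in Control mice, −4.81 ± 0.36 (n = 7) in PAT1 and −5.25 ± 0.70 (n = 10) in PAT3 mice. Only its change between groups can be read, since the probes differ, and it was −0.88 in PAT1 and −1.33 in PAT3 on the log2 scale. Cish minus Stat5b averaged −3.13 ± 0.43 in Control mice, −2.88 ± 0.39 in PAT1 mice and −3.00 ± 0.51 in PAT3 mice, changes that lie within those SDs. Stat4 minus Stat6 averaged −4.73 ± 0.33 in Control mice, −5.38 ± 0.62 in PAT1 mice and −5.94 ± 0.51 in PAT3 mice.

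PAT3 was also compared with PAT1 directly. None of the 10 genes was called by limma, beside 4.2% of all genes. At an unadjusted p under 0.05 there were 2, Stat4 and Stat5a, beside 28.5% of all genes, and the methods' test, an analysis of variance with Tukey's comparison per gene, called 0.

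Sex was tested across the groups. Mice were housed by sex and group, so sex and cage cannot be told apart, here or in the interaction below. None of the 10 genes was called by limma for females against males, beside 0.366% of all genes, and 3 had an unadjusted p under 0.05 (Socs3, Cish and Tyk2), beside 11.7% of all genes. Socs3 was higher in females by 0.53 (SE 0.13, limma adjusted p = 0.0618), just outside the threshold. It was called at 0.62 with sample weights (limma adjusted p = 0.00528), and on genes with a mean of at least 5 (adjusted p = 0.0340). These were 2 of 4 alternatives other than leaving out a mouse, among which the adjusted p reached 0.108. Of 24 fits that left out 1 mouse, 2 called it. In Control mice, Socs3 averaged 7.61 in females and 6.98 in males, with overlap. In PAT1 mice the means were 6.07 and 5.85, also with overlap. In PAT3 mice the 6 females lay at 5.71 to 6.24 and the 4 males at 5.003 to 5.41, without overlap. Cish, too, separated the sexes in PAT3, with females at 5.42 to 6.65 and males at 5.17 to 5.38. Of all genes, 5.3% separated the sexes in PAT3 without overlap, and 1.65% did so with females higher, as these 2 of the 10 did.

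Whether the change with treatment differed between the sexes was tested as an interaction. None of the 10 genes was called by limma, beside 0.183% of all genes, and 4 had an unadjusted p under 0.05 (Jak1, Tyk2, Stat3 and Stat5a), beside 18.3% of all genes. In PAT1, all females exceeded all males for 4 of the 10 genes (Jak1, Tyk2, Stat5a and Stat5b), beside 13% of all genes in that direction and 20.1% in either direction. Stat5a averaged 7.29 in PAT1 females and 6.42 in PAT1 males. Stat5b lay the other way in Control, where all 4 males exceeded the 3 females, with means of 8.38 and 8.29, the sole gene of the 10 that separated the sexes in Control mice, beside 7.5% of all genes. Depth moved with sex in PAT1, with totals of 171671 to 631905 counts in males and 543394 to 782392 in females, and its part in these differences was not tested.

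Variation among mice of the same group sorted the 10 genes. After the mean of each group was subtracted, Jak1, Stat3 and Stat6 moved closely together, with Pearson r of 0.93 for Jak1 and Stat3, 0.92 for Jak1 and Stat6 and 0.95 for Stat3 and Stat6 over 24 mice. These are descriptions, since all values of a mouse share its RNA, depth and size factor. The 3 genes also followed the log2 total counts (r of 0.84, 0.79 and 0.83) and the mean of 7 enterocyte markers (0.81, 0.88 and 0.85). Jak2 followed the enterocyte mean most closely, with r of 0.89. Stat5a and Stat5b followed each other, with r of 0.77, and their r with the enterocyte mean was 0.21 and 0.34. Stat4 was at −0.38 with Stat3 and at 0.66 with the T cell mean. Socs3 was at −0.08 with Stat3 and at 0.21 with the T cell mean, and Cish was at −0.04 with Stat5b. The lowest and highest r of Socs3 with any other of the 10 genes were −0.18 and 0.25.

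**Figure D3:**
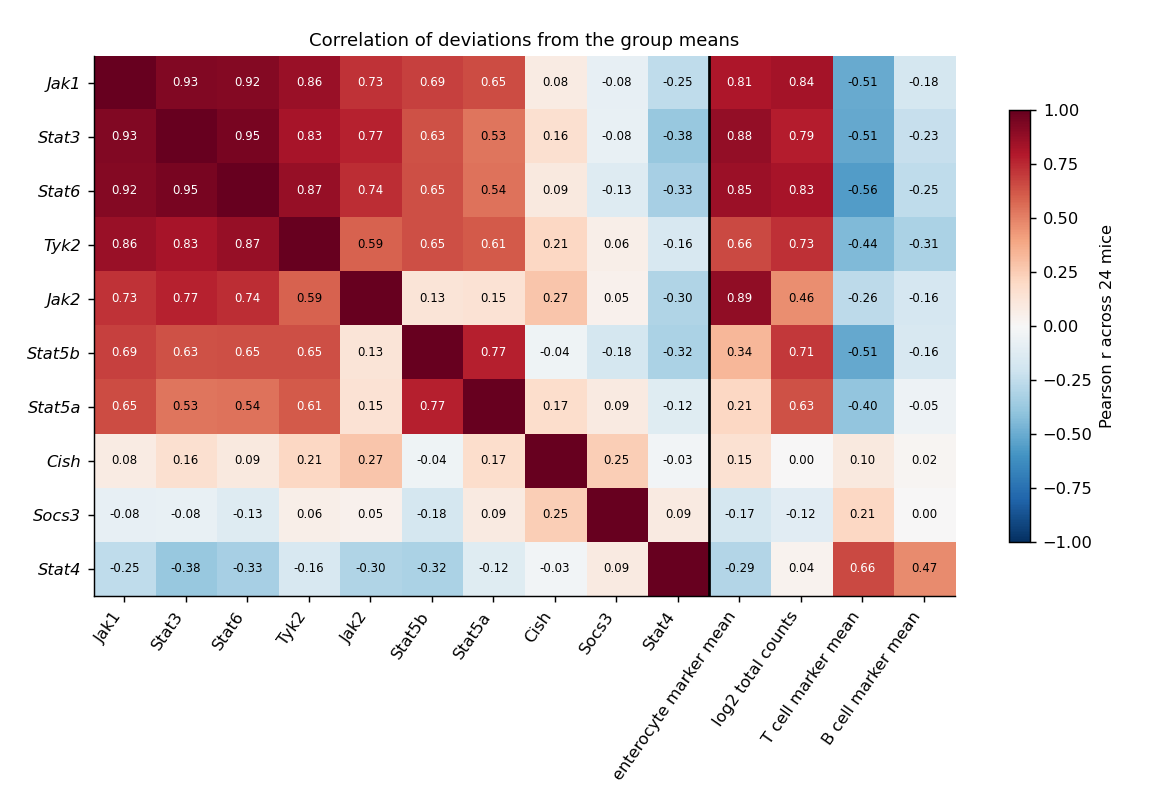
Pearson r across 24 mice between the 10 genes (rows and left columns) and with the enterocyte marker mean, log2 total counts, T cell marker mean and B cell marker mean (right columns), after group means were subtracted. Jak1, Stat3 and Stat6 form a block with r of 0.92 to 0.95, whereas Socs3 and Cish lie between −0.18 and 0.27 with all others of the 10.

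The other panel genes most like each of the 10 sort in the same way. For Jak1 they were App, Nfkb1 and Smad3 (r of 0.95, 0.94 and 0.94), and for Stat3 App, Nfkb1 and Itga6 (0.97, 0.96 and 0.95). For Jak2 they were Prkcd, Chuk and the enterocyte marker Btnl1 (0.97, 0.97 and 0.95). Tyk2 was most like Ikbkg, Map4k4 and Abcf1 (0.92, 0.91 and 0.90), and Stat6 most like Itga6, Tnfrsf11a and Ifnar1 (0.95 each). Stat5a was most like Notch1, Tcf4 and the endothelial cadherin Cdh5 (0.82, 0.82 and 0.81), and Stat5b was close to Tcf4 and Pecam1 (0.90 and 0.88). Stat4 was most like the lymphocyte genes Gpr183 and Ikzf1 (0.71 and 0.70) and Ciita (0.69). The best r was lower for both inhibitors, with Ccr4, Nfkbia and Il11ra1 for Socs3 (0.59, 0.56 and 0.55) and Il17re, Ltb4r1 and Psmb10 for Cish (0.59, 0.47 and 0.47).

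The remaining pathway genes are given from lists written from general knowledge, starting with the signalling proteins. Of 6 other Janus kinase, STAT, SOCS and phosphatase genes described here, PAT1 showed 1 called higher and 1 called lower, and PAT3 showed 3, all lower, with median log2 fold changes of −0.24 and −0.40 beside 0.01 and 0.03 over all genes. For reading these counts, the shares of all genes called higher and lower were 7.31% and 11.2% in PAT1, and 13.9% and 17.9% in PAT3. Socs1, which restrains interferon gamma signalling, fell by 0.84 in PAT3 (limma adjusted p = 0.000877). Ptpn6, a phosphatase of blood cells, rose by 0.49 in PAT1 (limma adjusted p = 0.0120). Jak3, the kinase of the common gamma chain, fell by 0.88 in PAT1 (limma adjusted p = 0.0153) and fell by 0.65 in PAT3 (adjusted p = 0.03995). The third gene lower in PAT3 was Ptprc, a general leukocyte gene named after its value was seen, at −0.46 (limma adjusted p = 0.0452).

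Among receptors, those of interferons rose. All 4 on the panel were called higher in PAT3 and 2 in PAT1, with median log2 fold changes of 0.46 and 0.41. Ifngr2 rose by 0.96 in PAT1 (limma adjusted p = 0.000614) and by 0.61 in PAT3 (adjusted p = 0.00770), and Ifngr1 by 0.57 in PAT1 (adjusted p = 0.0136) and by 0.58 in PAT3 (adjusted p = 0.00473). Of 5 gp130 family receptors, on whose signalling Socs3 acts, none was called in PAT1. In PAT3, the IL-6 receptor gene Il6ra rose by 0.64 (limma adjusted p = 0.00507) and Il11ra1 by 0.49 (adjusted p = 0.01004, named after its value was seen), while Il27ra fell by 0.85 (adjusted p = 0.000379). Il11ra1 rested on 8 to 33 counts per mouse. Il6st, which encodes gp130 itself, was at −0.18 in PAT1 (limma adjusted p = 0.497) and 0.26 in PAT3 (adjusted p = 0.198).

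Of 7 receptors that use the common gamma chain, 1 was called lower in PAT1 and 3 in PAT3. Il2rb fell by 0.53 in PAT1 (limma adjusted p = 0.0150) and fell by 1.06 in PAT3 (adjusted p = 2.57e-06), and PAT3 was below PAT1 by a log2 difference of −0.53 (adjusted p = 0.0401). Il2rg fell by 0.73 in PAT3 (limma adjusted p = 0.00365), and the third gene was Il21r, at −1.37 (adjusted p = 0.00549) on 5 to 185 counts per mouse. Of 3 IL-12 and IL-23 receptor genes, Il12rb2, whose protein activates Stat4, fell by 0.79 in PAT3 (limma adjusted p = 0.00727), and none was called in PAT1. Il12rb2 rested on 7 to 34 counts per mouse. Il10rb, which is shared by IL-10, IL-22 and interferon lambda receptors, rose by 0.71 in PAT1 (limma adjusted p = 0.00247) and by 0.39 in PAT3 (adjusted p = 0.0446), the sole call among 3 genes of that list. Of 2 beta common and IL-13 receptor genes, Csf2rb fell by 0.45 in PAT3 (limma adjusted p = 0.0435), and neither was called in PAT1. T cell markers were lower in the same groups (9 of 11 called lower in PAT3 and 3 in PAT1), and their part in these receptor values was not tested.

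Of 27 ligands, PAT1 had 2 called higher and 1 called lower, and PAT3 had 2 of each. Il15, which sustains natural killer and CD8 T cells, rose by 1.21 in PAT1 (limma adjusted p = 0.000534) and by 0.96 in PAT3 (adjusted p = 0.00127). Il7, a survival factor of lymphocytes, fell by 0.54 in PAT1 (limma adjusted p = 0.00902) and fell by 0.48 in PAT3 (adjusted p = 0.00774). The others called were Ifna1 in both groups and Il22 in PAT3, both named after their values were seen. They rested on 2 to 17 counts and 1 to 24 counts per mouse, and Il22, an activator of Stat3 in epithelium, was at −1.56 in PAT3 (limma adjusted p = 0.00802). Il6, added for its link to Socs3, was at 0.22 in PAT1 (limma adjusted p = 0.647) and −0.05 in PAT3 (adjusted p = 0.895). It rested on only 4 to 18 counts per mouse, which limits what change could be seen.

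Genes that STAT proteins are known to switch on were listed by STAT. Of 6 Stat3 targets other than Socs3, Il17a and Batf, both genes of Th17 cells, were called lower in both groups, and Il17a fell by 1.05 in PAT1 (limma adjusted p = 0.00567) and fell by 1.28 in PAT3 (adjusted p = 0.000283) on 5 to 31 counts per mouse. Of 6 Stat4 targets, 2 were called lower in PAT1, whereas in PAT3 there were 3 called lower and 1 called higher. The cytotoxic protease Gzmb fell by 1.62 in PAT1 (limma adjusted p = 0.00117) and fell by 2.33 in PAT3 (adjusted p = 2.41e-06), and Tbx21, the Th1 regulator, fell by 0.65 in PAT1 (adjusted p = 0.00422) and fell by 0.60 in PAT3 (adjusted p = 0.00230). The third gene lower in PAT3 was Il12rb2, given above, and the gene that rose was Il18r1 (0.54, limma adjusted p = 0.0113), named after its value was seen.

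Of 5 Stat5 targets, none was called in PAT1. In PAT3, Bcl2, which blocks cell death, rose by 0.68 (limma adjusted p = 0.00215) and the cytotoxic gene Prf1 fell by 0.92 (adjusted p = 0.00502). Prf1 rested on 6 to 31 counts per mouse. Of 5 Stat6 targets, the chemokine Ccl11 rose by 0.77 in PAT1 (limma adjusted p = 0.00902) and by 0.84 in PAT3 (adjusted p = 0.00154), and Ccl22 fell by 0.997 in PAT1 (adjusted p = 0.00433) and fell by 1.13 in PAT3 (adjusted p = 0.000385). Many of these targets are lymphocyte genes, and the T cell marker values given beside Stat4 moved in the same groups. Their part in the target lists was not tested. Ccl11 is also a stromal marker, and 4 of 5 stromal markers were called higher in PAT3, with list means of 8.29 to 9.12 in Control and 8.50 to 9.86 in PAT3 mice.

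Markers of other cells complete the picture of the tissue. Of 7 enterocyte markers, 2 were called higher and 3 lower in each PAT group, with list means of 12.11 to 13.03 in Control, 11.50 to 12.88 in PAT1 and 11.33 to 12.96 in PAT3 mice. Of 7 B cell markers, 0 were called in PAT1 and 1 was lower in PAT3, with list means that varied widely between mice, from 4.14 to 6.17 in Control, from 3.71 to 8.48 in PAT1 and from 3.30 to 5.11 in PAT3. Of 7 macrophage and dendritic cell markers, 1 was called lower in each PAT group, with list means of 7.69 to 8.26 in Control, 7.48 to 7.94 in PAT1 and 7.64 to 8.18 in PAT3 mice. Of 5 neutrophil markers, 0 were called in PAT1 and 1 was lower in PAT3, and 2 of the 5 had a value listed at 0. Within groups, Socs3 was at r of −0.17 with the enterocyte mean, 0.01 with the macrophage and dendritic cell mean and 0.02 with the stromal mean.

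**Figure D4:**
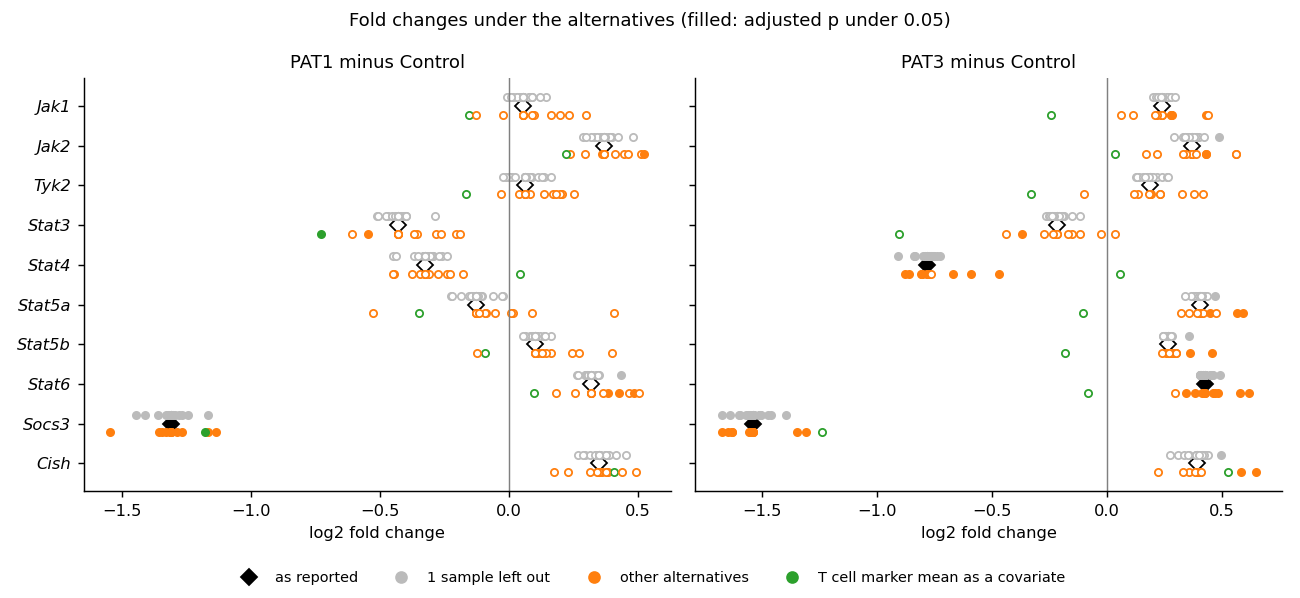
Log2 fold change against Control (x axis) of the 10 genes in PAT1 (left) and PAT3 (right) as reported (black), with 1 mouse left out (grey), with the T cell marker mean as a covariate (green) and under the other alternatives (orange), filled where the adjusted p was under 0.05. Socs3 stays below −1 in both comparisons under every setting run. With the T cell mean, Stat4 and Stat6 in PAT3 move to 0.06 and −0.08, and Socs3 in PAT3 is not called (limma adjusted p = 0.0593). The T cell means of Control and PAT3 mice do not overlap, so that fit has few mice from which to separate group from covariate.

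Across 37 alternatives, made up of 24 that left out 1 mouse and 13 others, Socs3 was called in PAT1 in all 37 and in PAT3 in all but the fit with the T cell mean. Its log2 fold change ranged from −1.54 to −1.13 in PAT1 and from −1.68 to −1.24 in PAT3. Stat4 and Stat6 in PAT3 were each called in all 24 fits that left out 1 mouse and in 11 of the 13 others, the exceptions being the T cell mean and females alone.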

How the data were processed

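Groups and sex came from the sample labels. Per the methods of the study, the authors normalized nCounter counts with DESeq2, which scales every sample by a size factor of its own. They deposited log2 values for 547 genes in 24 samples. Counts were recovered by undoing the log2 step and the scaling. All values but those at 0 (100%) lay within 0.01 of a whole number. Totals were 171671 to 782392 counts per sample, and counting errors cover counting only. All 276 pairs of samples differed by more than sampling noise (smallest chi-square per degree of freedom 3.98). Whether background was subtracted is not given in the sources used here, and the labels and the methods name different RNA extraction kits.

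Each gene was tested with limma 3.58.1 (lmFit and eBayes, R 4.3.3) in a fit over the 3 groups without a covariate. P-values were adjusted over all 547 genes within a contrast, with a threshold of 0.05, without a filter or pseudocount. Sex was tested with treatment in the fit, and treatment by sex as an F-test over 6 means. Alternatives were the methods' test, re-centring, quantile normalization, voom on recovered counts, a filter on low values, sample weights, covariates, each sex alone and leaving out each mouse. The genes, lists and tests were chosen with earlier results of these data known. Besides the 10 genes, the 3 genes most like each and at most 2 genes per list and contrast with the smallest adjusted p are named. A few genes and the list that rests on them are not reported here. Replicate numbers only name mice. Promoter sequences are RefSeq, GRCm38.p6.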

Additional observations from a re-analysis of the deposited data

Results flagged for a closer look

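Values of the 10 genes were checked for a single mouse far from the others in each of 30 sets (10 genes in 3 groups), with Dixon's test, which marks about 1 set in 20 by chance. It marked 4. Jak2 in PAT3 replicate 5 was at 10.14, below the next PAT3 mouse at 11.04. Tyk2 in PAT3 replicate 7 was at 6.84, below the next at 7.44, and Stat5b in the same mouse was at 7.79, below the next at 8.49. That mouse was the shallowest of PAT3, with 265500 counts. Stat4 in Control replicate 1 was at 5.07, below the next Control mouse at 5.86. That mouse was the shallowest of its group, with 445534 counts, and had the highest B cell marker mean of the Control mice, at 6.17. The part of depth or of cell content in these values was not tested.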

How the results depend on the processing

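No paired analysis was run, because each group holds different mice. The labels give no replicate numbers, and those used here only name the mice in the order listed. Depth limits Stat4, Socs3 and Cish, which rested on the fewest counts, and a p that missed the threshold does not show that groups did not differ.

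The number of the 10 genes called in PAT1, 1 as reported, was 2 with quantile normalization, with sample weights, with the T cell mean and with the size factor as a covariate, and 3 with the enterocyte mean. It was 1 to 2 with 1 mouse left out, and 2 without PAT1 replicate 1, when Stat6 was added. In PAT3, 3 as reported became 8 with re-centring, 7 with quantile normalization, 7 with sample weights, 0 with the T cell mean, 5 with the enterocyte mean, 6 with the size factor and 1 in females alone. It was 3 to 5 with 1 mouse left out, and 5 without PAT3 replicate 7, when Stat5a and Stat5b were added. The T cell means of Control and PAT3 mice do not overlap, so a fit with that covariate has few mice from which to separate the group from the covariate. For PAT3 minus PAT1, 0 as reported became 1 with re-centring, 1 on genes with a mean of at least 5, 2 with sample weights and 3 in males alone, and 0 to 2 with 1 mouse left out (2 without PAT1 replicate 5 or PAT3 replicate 7, and 1 without PAT1 replicate 6). In the F-test, 4 as reported became 7 with sample weights, 2 with sex, 1 with the T cell mean, 2 with the B cell mean (chosen after seeing the data) and 1 in females alone, and 2 to 5 with 1 mouse left out. It was 2, with Stat5a and Stat6 lost, in 13 of those fits: without Control replicate 1, 4 or 6, without PAT1 replicate 2, 3 or 4, and without PAT3 replicate 2, 3, 4, 6, 8, 9 or 10. For sex, 0 became 1 (Socs3) on genes with a mean of at least 5 and with sample weights, and 0 to 1 with 1 mouse left out (1 without Control replicate 2 or PAT1 replicate 7). The cause of these changes was not tested.

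Of 390 fold changes under alternatives other than leaving out a mouse, 313 kept direction and side of the threshold, 31 came past it, 3 lost it and 43 changed sign. With the T cell mean, the values in PAT1 were −0.16 for Jak1, −0.17 for Tyk2, 0.044 for Stat4 and −0.094 for Stat5b. In PAT3 they were −0.24 for Jak1, −0.33 for Tyk2, 0.060 for Stat4, −0.10 for Stat5a, −0.18 for Stat5b and −0.080 for Stat6. For PAT3 minus PAT1 they were −0.087 for Jak1, −0.19 for Jak2, −0.16 for Tyk2, −0.17 for Stat3, 0.015 for Stat4, −0.087 for Stat5b and −0.18 for Stat6. In females alone, PAT3 minus PAT1 was −0.23 for Jak1, −0.29 for Jak2, −0.28 for Tyk2, −0.25 for Stat3, −0.13 for Stat5b and −0.21 for Stat6, while Tyk2 in PAT3 was −0.098 and Stat5a in PAT1 0.41. In males alone, PAT1 was −0.13 for Jak1, −0.029 for Tyk2 and −0.12 for Stat5b, Stat3 in PAT3 was 0.038, and Cish in PAT3 minus PAT1 was −0.22. With the size factor, Stat5a in PAT1 was 0.091, and PAT3 minus PAT1 was −0.058 for Jak2, −0.023 for Tyk2 and −0.021 for Stat6. With quantile normalization, Jak1 in PAT1 was −0.023, Stat5a in PAT1 0.0098 and Jak2 in PAT3 minus PAT1 −0.018, and with re-centring Stat5a in PAT1 was 0.017. For Jak2 in PAT3 minus PAT1 the value was −0.020 with sex, −0.092 with the enterocyte mean and −0.078 with the B cell mean. Tyk2 in that contrast was −0.016 with the B cell mean, and Cish −0.015 with sex.

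With 1 mouse left out, 694 of 720 fold changes kept direction and side, 10 came past the threshold and 16 changed sign. The ranges of the latter were −0.0087 to 0.14 for Jak1 in PAT1, −0.022 to 0.16 for Tyk2 in PAT1, −0.11 to 0.12 for Jak2, −0.0054 to 0.17 for Stat6 and −0.073 to 0.11 for Cish in PAT3 minus PAT1.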
